A study of Mus musculus with 12 samples.

Results

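The loss of LSD1 in transitional B cells was described across all 9842 genes that the deposited table lists, by setting the 3 knockout libraries (TrB_KO) against the 3 wild-type libraries (TrB_WT). The members are these 6 of the 12 libraries of the series, chosen by their labels alone. Both groups came from spleens of female C57BL/6J mice, and the labels give their LSD1 status as knockout or wild-type. After magnetic enrichment the cells were sorted, with no stimulation, as B220+ and CD93+ cells negative for Thy1.1, F4/80 and CD11b. RNA of 2000 cells went into each library. The other 6 libraries (eMZB) are marginal zone B cells derived from such cells by 3 days of culture with BAFF and DL1, again 3 wild-type and 3 knockout. The labels name neither the deleting allele nor a Cre driver, nor the age of the mice. Nor do they tie each library to its own animal, so a p-value reflects how far the libraries scatter, and that scatter may be technical. Unless stated, each p-value below rests on a spread per gene that was estimated over all 12 libraries, cultured cells included.

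LSD1, the product of Kdm1a, is a histone demethylase that removes methyl groups from mono- and dimethylated lysine 4 of histone H3, a mark of enhancers and promoters. It works with the scaffold CoREST and with histone deacetylases, and is best known for restraining transcription. Transitional B cells are recent emigrants from the bone marrow that still carry CD93. In the spleen they pass checkpoints for self-reactivity and survival and become follicular or marginal zone B cells, a choice shaped by B cell receptor signals, the survival factor BAFF and Notch2.

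Values are FPKM (reads per kilobase of gene and per M reads, M for mega) after division by a median-of-ratios factor per library, called scaled FPKM below, and they are listed for replicates 1, 2 and 3 in that order. Read totals of the 6 libraries ran from 11.62 to 16.89 M, and reads in listed genes from 1.96 to 8.78 M. TrB_KO replicate 3 stood apart: 61.6% of its reads fell in listed genes, against 16.7% to 20.9% in the other transitional libraries, and 285 listed genes were at 0 there, against 30 to 52. Its scaling factor was 2.16, against 0.619 to 0.774. Its differences go with every comparison below, so counts are also given without it.

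Kdm1a (Entrez 99982), the targeted gene, had scaled FPKM of 8.45, 7.85 and 3.44 in TrB_WT and 3.31, 2.54 and 2.96 in TrB_KO. The library labelled TrB_WT replicate 3 lay next to the knockout range rather than beside its group, on 77 reads against 216 and 241 in replicates 1 and 2. The groups did not overlap, but the log2 change of -0.87 (SE 0.26) did not pass (limma adjusted p = 0.249). Leaving out TrB_WT replicates 1 or 2 or the library labelled replicate 3 gave -0.68, -0.72 and -1.22 (limma adjusted p = 0.486, 0.434 and 0.0127). The last of these drops a library for its own low Kdm1a, so it is a description and no test. On the deposited values the change was -0.32 (limma adjusted p = 0.492). Gene-level values do not show from which exons the remaining reads came. The library labelled TrB_WT replicate 3 was also placed by the 49 genes called when it was left out (microRNA genes aside). Its value lay nearer to the mean of the other TrB_WT libraries in 34, and nearer to TrB_KO in the remaining 15. Its median place was 0.324 (quartiles 0.037 and 0.62) on a scale where 0 is the other wild-type libraries and 1 the knockout mean. The reason for this place was not tested. TrB_WT replicates 1 and 2, treated alike, were nearer to their own group in 21 of 22 and 31 of 32 genes. The 3 TrB_KO libraries were so in 26 of 35, 30 of 33 and 27 of 27.

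Markers of the sorted cell were present in both groups. The transitional B cell list, 8 of 9 markers listed, summed to between 1660 and 1980 scaled FPKM in TrB_WT and between 1550 and 1730 in TrB_KO. Cd93, the gate's own marker, had 4.95 ± 0.772 (SD, n = 3) and 5.16 ± 0.774. Of 7 T cell markers Lck alone was listed, at 4.32 to 7.52 and 6.00 to 7.12, and markers of NK cells, neutrophils and platelets were not among the listed genes. The 3 listed macrophage and monocyte markers of 8 summed to 5.0 to 6.49 and 4.27 to 5.07, the 3 listed dendritic cell markers of 7 to 45.5 to 49.4 and 47.6 to 53.7. All 6 plasma cell markers were listed, at 95.4 to 122 and 121 to 166. The 1 listed erythroid marker of 6, Hbb-bs, ran from 2.07 to 2.57 and from 0.911 to 1.91. Both listed stromal markers of 6 summed to 53.7 to 59.1 and 56.0 to 70.8. None of the listed markers was called. In bulk samples fewer cells of a type and less RNA per cell cannot be told apart.

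Few genes were called between LSD1-deficient and wild-type transitional B cells, and the calls were mostly gains. With 3 libraries per group, a gene that was not called is not shown to be unchanged. In limma, 49 of 9842 genes (0.498%) passed an adjusted p of 0.05, 38 higher in TrB_KO (0.386%) and 11 lower (0.112%). The rises were led by the surface antigens Ly6c2 and Ly6a, the helicase gene Ddx23, Slc66a2 and Rapgef3. The falls, microRNA genes with few reads aside, were led by Ifi208, Col5a3, Rgs18 and Ide. Of the 38 genes that rose, 21 had a mean at least 2 times that of TrB_WT. The scaling sets the median log2 change near 0 (0.01), so a shift common to all genes would not show. Around it 25% of genes lay below -0.13 and 25% above 0.13, and the outer 1% began at -0.89 and 0.56. Unadjusted p was under 0.05 in 975 genes (9.91%), the share against which the counts of list members under that value are to be read. Likewise 5067 genes (51.5%) had a log2 change above 0, the share for counts of list members above 0. The median log2 change also varied with level, from -0.09 below 2 FPKM to 0.06 between 10 and 50. Among the 4552 genes that averaged 5 FPKM or more in either group, 21 were at 2-fold or above and 14 of these were called. At 0.5-fold or below were 20, of which 3 were called. All 49 called genes had groups without overlap. Over all genes TrB_KO lay wholly above in 6.14% and wholly below in 4.37%. A call on these same libraries favours groups without overlap, so the separation adds no support to the calls.

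By level, 9 of the called genes had a mean below 2 FPKM, 15 lay between 2 and 5, 15 between 5 and 10, 9 between 10 and 50, and 1 (Ly6a) above 50. Without the library labelled TrB_WT replicate 3 the count was 54, of which 37 were among the 49. Without TrB_KO replicate 3 it was 33, with 32 shared, without TrB_WT replicate 1 it was 26, with 25 shared, and without both replicates 3 it was 80, with 38 shared. On the values as deposited, where the median gene moved by 0.52, the calls were 11 higher and 8 lower, 13 of them shared. The transitional libraries alone (4 residual degrees of freedom) gave 9 calls: Ly6c2, Ly6a, Ddx23, Slc66a2, Rapgef3, Ctse, Ifi208, Mir1949 and Mir7228. Itgb7 and Srp54a (each limma adjusted p = 0.0555), Gimap4 (0.058), Endou and Ide (each 0.0602) and Rgs18 (0.0805) were not called there.

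**Figure D1:**
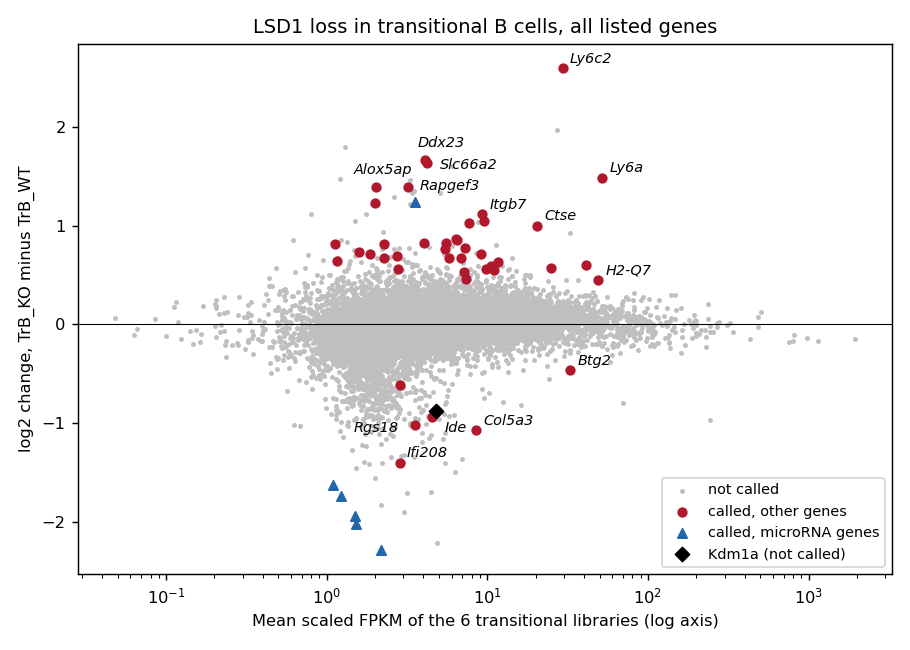
Each point is a listed gene, with its mean scaled FPKM over the 6 transitional libraries on a log axis and its log2 change, TrB_KO minus TrB_WT. The 49 called genes are coloured and most lie above 0, with Ly6c2 highest at 2.59, while the 5 microRNA genes at the bottom rest on at most 4 reads per library.

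Surface antigens of the Ly6 family showed the largest gain. Ly6c2 (Entrez 100041546), which encodes an antigen of monocytes and of memory and activated lymphocytes, had scaled FPKM of 9.02, 5.75 and 8.40 in TrB_WT and 46.3, 47.8 and 59.5 in TrB_KO. Every knockout library stood far above every wild-type one, a 6.63-fold difference of means (log2 change 2.59, SE 0.22, limma adjusted p = 1.79e-04). Ly6c1, a near-identical neighbour that may share its reads, was listed at 1.32 ± 0.507 and 2.36 ± 0.689 (SD, n = 3; limma adjusted p = 0.362). Ly6a (Entrez 110454), the Sca-1 antigen of stem cells and activated lymphocytes, had 23.7, 22.1 and 36.5 against 73.1, 74.0 and 82.8. The groups were well apart, with the library labelled TrB_WT replicate 3 the highest of the wild types, and the log2 change was 1.48 (SE 0.17, limma adjusted p = 7.44e-04). The rise was not shared by the more abundant members of the family: Ly6e had 348 ± 24.6 and 329 ± 16.4, and Ly6d, a marker of early B lineage cells, 841 ± 48.9 and 786 ± 122, with overlapping libraries. Of 6 listed members of the family 2 rose, and the family's median log2 change was 0.51.

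For 3 of the genes that rose or fell most, the letters of a RefSeq promoter (GRCm38.p6) are shown for the motifs they hold. Ly6c2 is read from the minus strand at chr15:75111972-75112221, the 250 bases before 1 of its start sites. Capitals mark GAGGAAG, the letters bound by PU.1, and CAGCTG, an E-box of E2A that reads the same on both strands. Rapgef3 is read from the minus strand at chr15:97767667-97767916, with CAGCTG and the GC box GGGCGG, or its reverse complement, in capitals. Ifi208 is read from the plus strand at chr1:173673415-173673664, with the core of an interferon-stimulated response element (ISRE) and TATAAA in capitals.
Ly6c2: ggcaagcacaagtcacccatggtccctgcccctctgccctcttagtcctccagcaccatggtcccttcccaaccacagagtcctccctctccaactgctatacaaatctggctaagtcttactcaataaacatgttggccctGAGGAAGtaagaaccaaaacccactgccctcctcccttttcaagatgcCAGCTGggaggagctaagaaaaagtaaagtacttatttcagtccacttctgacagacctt
Rapgef3: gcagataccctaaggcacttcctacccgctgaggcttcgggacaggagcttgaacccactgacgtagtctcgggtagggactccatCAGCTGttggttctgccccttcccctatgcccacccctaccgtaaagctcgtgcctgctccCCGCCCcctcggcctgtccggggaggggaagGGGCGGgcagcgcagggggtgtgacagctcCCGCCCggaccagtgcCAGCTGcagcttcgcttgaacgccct
Ifi208: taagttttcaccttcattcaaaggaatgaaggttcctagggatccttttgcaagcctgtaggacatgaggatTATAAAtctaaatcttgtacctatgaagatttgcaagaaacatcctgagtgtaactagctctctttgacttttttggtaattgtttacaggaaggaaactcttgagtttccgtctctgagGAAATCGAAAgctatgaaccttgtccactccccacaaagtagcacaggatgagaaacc
Both strands of the 250 bases before the start of 7831 listed genes were searched, 30 called genes among them. GAGGAAG stood in 12.7% of all promoters and in 6 of the 30 called ones, CAGCTG in 12.8% and 5, the ISRE core in 3.52% and 1 (Ifi208). GTGGGAA, the letters of the Notch factor RBPJ, stood in 6.24% and 4, and the NF-kB motif in 1.74% and 1 (Serpina3g). The MYC E-box CACGTG was in 10.3% and 1, GGGCGG in 62.6% and 15, TATAAA in 8.24% and 3. A match describes the letters and is no evidence of binding.

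The homing receptor gene Itgb7 rose. Itgb7 (Entrez 16421), the integrin beta 7 chain that pairs with alpha 4 in entry to gut tissue, had 5.18, 5.66 and 5.495 in TrB_WT and 10.5, 13.5 and 15.4 in TrB_KO. The lowest knockout library was well above all wild types, a 2.41-fold difference (log2 change 1.12, SE 0.11, limma adjusted p = 3.68e-04). Of 17 listed adhesion genes 2 rose, Itgb7 among them, and none fell, 15 had a log2 change above 0, and the median was 0.17 (over all genes 0.01). Icam1, an adhesion ligand, had 5.35 ± 0.418 and 7.60 ± 0.0710 (limma adjusted p = 0.122), and Cdh17, a cadherin, 1.98 ± 0.368 and 3.17 ± 0.303 (adjusted p = 0.131 in limma). Of 11 chemokine and lipid receptors of migration limma called 0, voom 0, and 5 were under an unadjusted p of 0.05. Cxcr4, which holds cells near CXCL12, came nearest at 9.09, 11.0 and 11.8 against 15.4, 15.8 and 21.8 (limma adjusted p = 0.0762). Its groups did not overlap, and TrB_KO replicate 3 was the highest library.

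Of genes that mark later B cell stages, Cr2 and Cd36 rose as well. Cr2 (CD21, the complement receptor that is high on marginal zone cells) had 8.40, 7.72 and 9.92 in TrB_WT and 12.7, 11.7 and 15.1 in TrB_KO. Cd36, a scavenger receptor of marginal zone cells, had 7.02, 8.34 and 9.41 against 13.6, 11.2 and 13.9. In both, the highest wild-type library, the one labelled replicate 3, lay below the lowest knockout library by less than the range of either group. The log2 changes were 0.55 (SE 0.11) for Cr2 and 0.59 (SE 0.11) for Cd36, with limma adjusted p = 0.0472 and 0.0392. With single libraries dropped in turn, each stayed called in 2 of 12 fits, with adjusted p up to 0.179 for Cr2 (without TrB_WT replicate 2) and 0.14 for Cd36 (without TrB_KO replicate 3). Of 19 listed marginal zone genes these 2 rose and none fell, 13 were above 0 and the median was 0.23. Of 15 follicular genes 2 rose, Itgb7 among them, and none fell. Fcer2a (CD23) had 35.2 ± 3.42 and 43.3 ± 3.63, without overlap and not called (limma adjusted p = 0.252). Among 15 transitional and immature genes 1 rose, Ms4a4c, a membrane protein of the CD20 family, with 18.6, 18.7 and 22.6 against 32.8, 29.0 and 28.6 (log2 change 0.57, limma adjusted p = 0.0435, kept in 2 of 12 fits and up to 0.165 without TrB_WT replicate 1). Rag1, the recombinase gene of B cell precursors, had 1.83 ± 0.306 and 0.998 ± 0.312 (adjusted p = 0.31 in limma), and Vpreb3 248 ± 27.6 and 211 ± 18.6. The list's median was -0.05.

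Signalling genes moved singly. Rapgef3 (Entrez 223864), the cAMP-activated exchange factor Epac1 that switches on Rap1, had 1.19, 1.62 and 1.18 in TrB_WT and 4.80, 5.01 and 5.54 in TrB_KO. Each group was tight and they lay far apart, 3.84-fold (log2 change 1.40, SE 0.12, limma adjusted p = 1.79e-04). The kit does not mark strand, so reads of Rapgef3 and the overlapping Rapgef3os2 and Gm33531 cannot be told apart. Rasgrp3, which activates Ras downstream of the B cell receptor, had 7.86, 6.52 and 8.91 against 11.5, 10.8 and 13.5, with a log2 change of 0.56 (SE 0.11, limma adjusted p = 0.0454). It kept the call in 1 of 12 fits, with adjusted p up to 0.153 without TrB_KO replicate 3. Of 19 genes of cAMP and small GTPase exchange these 2 rose and none fell, with a median of 0.07. Gimap4, a GTPase of lymphocytes, rose 2.24-fold, from 5.25, 5.43 and 6.98 to 14.9, 13.3 and 11.5 (log2 change 1.05, SE 0.12, limma adjusted p = 7.41e-04). It was the 1 called member of 8 listed GIMAP genes, all 8 above 0 with a median of 0.22. Gimap6 had 72.4 ± 5.96 and 90.6 ± 5.26 (limma adjusted p = 0.195) and Gimap1 50.2 ± 5.02 and 61.2 ± 4.99 (adjusted p = 0.266 in limma), both without overlap.

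Rgs18, which speeds the shut-off of G protein signals, fell. Its values were 4.86, 4.58 and 5.69 in TrB_WT and 2.18, 2.22 and 1.60 in TrB_KO, with no knockout library near a wild type (log2 change -1.01, SE 0.14, limma adjusted p = 0.00517). It was the 1 called gene of 6 listed RGS regulators, whose median was -0.18. Other signalling and surface genes that rose, named with their log2 changes, were Ptprv, a receptor-like tyrosine phosphatase (1.23), Tnfrsf18 (GITR, 0.77), Kcnn4, a calcium-activated potassium channel (0.69), the Src-family kinase gene Fgr (0.56), Icosl, the ligand of the costimulatory receptor ICOS (0.46), and H2-Q7, a class I MHC gene (0.45). Ptprv overlaps Ptpn7, and reads of H2-Q7 may be shared with its close copies. Of these 6, Ptprv and H2-Q7 stayed called whichever of the 12 libraries was dropped. Kcnn4 did so in 2 of the 12 fits, Tnfrsf18 and Fgr in 1 each and Icosl in 0, with adjusted p up to 0.137, 0.155, 0.138 and 0.145. Of 27 genes of B cell receptor signalling 1 rose (Cr2) and none fell, with a median of 0.05. The canonical NF-kB list had 0 of 20 called in limma and in voom, 2 under an unadjusted p of 0.05, and 17 above 0. The Notch list had 0 of 20 called by either tool, with 0 under an unadjusted p of 0.05.

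Several enzymes and their regulators rose. Ctse (Entrez 13034), the endosomal protease cathepsin E, had 12.6, 13.2 and 14.3 in TrB_WT and 25.5, 27.5 and 29.99 in TrB_KO. The spread within groups was small beside the 2.07-fold difference (log2 change 0.997, SE 0.09, limma adjusted p = 1.79e-04). It was the 1 called gene of 13 cathepsins and lysosomal proteases, of which 11 were above 0 (median 0.15). Lgmn had 15.3 ± 3.11 and 21.5 ± 3.08 (limma adjusted p = 0.202). Endou, a poly(U)-specific endoribonuclease, had 4.12, 4.14 and 4.60 against 7.91, 8.40 and 9.41. Its groups were separate by more than their ranges (log2 change 0.86, SE 0.12, limma adjusted p = 0.00406). Serpina3g, an inhibitor of lysosomal and serine proteases, had 5.05, 5.26 and 4.78 against 7.79, 9.12 and 11.4 (log2 change 0.78, limma adjusted p = 0.00805), with TrB_KO replicate 3 highest. Its family has close copies that may share reads. Alox5ap, the activating protein of 5-lipoxygenase, rose by 1.40 on the log2 scale (SE 0.18, limma adjusted p = 0.00377) from low levels, 2 to 7 reads per wild-type library and 22 to 73 per knockout library.

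Ide, the insulin-degrading enzyme, fell. It had 6.05, 5.71 and 6.93 in TrB_WT and 2.86, 2.83 and 2.62 in TrB_KO, a ratio of 0.444 with nearly equal knockout libraries (log2 change -0.94, SE 0.09, limma adjusted p = 1.81e-04).

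Some called genes belong to basic RNA and protein machinery, although their partners in the same machine were not called. Ddx23 (Entrez 74351), the U5 snRNP helicase needed to activate the spliceosome, had 1.83, 1.30 and 1.14 in TrB_WT and 5.54, 6.47 and 8.13 in TrB_KO. All knockout libraries were above all wild types by over the range of either group, a 4.71-fold difference (log2 change 1.67, SE 0.15, limma adjusted p = 1.81e-04). The other 16 listed spliceosome helicases and U5 proteins were not called, and the list's median was 0.11. Prpf8, the scaffold of the U5 particle, had 13.0 ± 2.54 and 21.5 ± 15.5, with overlapping libraries. Slc66a2 (Entrez 66943), a membrane protein with PQ-loop repeats, had 1.65, 1.35 and 1.60 against 6.17, 6.59 and 7.87. The 2 groups were far apart at 4.48-fold (log2 change 1.63, SE 0.12, limma adjusted p = 6.85e-05).

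Srp54a and Srp54b, copies of the gene for the signal-sequence-binding subunit of the signal recognition particle, rose together. Srp54a had 4.43, 4.16 and 5.57 in TrB_WT and 10.3, 9.78 and 11.7 in TrB_KO (log2 change 1.02, SE 0.10, limma adjusted p = 3.68e-04). Srp54b had 4.07, 3.88 and 4.72 against 8.72, 7.67 and 9.16 (log2 change 0.87, SE 0.10, limma adjusted p = 7.44e-04). In each the groups were widely separate, but the copies, Srp54c included, may share reads, so they are not independent readings. Of 21 genes of the particle and the translocon these 2 rose and none fell (median 0.07). The unfolded protein response list had 0 of 21 called in limma and in voom, with 4 under an unadjusted p of 0.05.

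Myc and Mcm6 rose and Btg2 fell, each the only call of its list. Myc, the growth-promoting transcription factor, had 5.33, 6.25 and 5.42 in TrB_WT and 8.89, 8.01 and 9.0 in TrB_KO, a 1.52-fold difference without overlap (log2 change 0.53, SE 0.10, limma adjusted p = 0.0392). Mcm6, a subunit of the replication helicase, had 4.05, 5.30 and 5.88 against 9.10, 7.06 and 9.83 (log2 change 0.67, SE 0.13, limma adjusted p = 0.0472). Btg2, which restrains proliferation, had 37.6, 35.2 and 42.1 against 25.8, 26.9 and 29.7, with every knockout library lower (log2 change -0.46, SE 0.09, limma adjusted p = 0.0398). As deposited, Btg2 had the opposite sign, 0.16 (limma adjusted p = 0.763). With single libraries dropped in turn, all of these stayed called in 2 of 12 fits, with adjusted p up to 0.143 for Myc and 0.116 for Btg2 (without TrB_WT replicate 1) and 0.165 for Mcm6 (without TrB_KO replicate 3). The lists around them gave 1 call each: Myc of 23 MYC and ribosome biogenesis genes (median 0.08), Mcm6 of 35 replication and cell cycle genes (0.11), and Btg2 of 19 quiescence genes (0.08), so the medians of the 3 lists had the same sign. Mcm4 had 5.85 ± 1.03 and 8.37 ± 1.23 (limma adjusted p = 0.203), and Mcm7 10.01 ± 1.28 and 14.0 ± 2.25 (adjusted p = 0.244 in limma).

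Structural genes moved both ways. Gsn, the actin-severing protein gelsolin, had 2.28, 2.83 and 2.78 in TrB_WT and 4.86, 5.57 and 5.88 in TrB_KO, clear of each other (log2 change 0.83, SE 0.12, limma adjusted p = 0.00805, and 0.0508 without TrB_WT replicate 1). Csrp1, a LIM-domain protein of the actin cytoskeleton, rose by 0.63 and Fmnl3, a formin, by 0.71. Fmnl3 kept its call in 1 of 12 fits that each dropped a library (adjusted p up to 0.105, without TrB_WT replicate 2) and Csrp1 in 11 (0.0526, without TrB_KO replicate 2). Col5a3, a chain of type V collagen, had 12.3, 10.3 and 13.0 against 4.61, 4.53 and 6.41, a fall in every knockout library (ratio 0.436, log2 change -1.07, SE 0.15, limma adjusted p = 0.00431). Col5a3 kept its call in all 12 fits that each dropped a library. It lost the call with a pseudocount of 0.1 (limma adjusted p = 0.289), on the transitional libraries alone (0.0602) and as deposited (0.352). Tceal9, of the TCEAL family of transcription elongation factor-like proteins, had 3.43, 4.04 and 3.51 against 8.60, 5.94 and 7.45 (log2 change 0.83, limma adjusted p = 0.0173). It lost its call in 3 of 12 fits, with adjusted p of 0.0852 without TrB_WT replicate 1 and 0.0607 without TrB_KO replicate 3. The remaining genes that rose, with log2 changes, were Sap30 (0.82), a subunit of the SIN3 deacetylase complex, Prmt2 (0.65), an arginine methyltransferase, the glycosyltransferase genes B3glct (0.81) and St8sia6 (0.71), Eno1b (0.73), Fam177a and Evi2a (each 0.67). Smim6 fell by 0.61. Several of these genes overlap others, and without strand their reads may be mixed. Evi2a overlaps Nf1 and Evi2, Smim6 overlaps Recql5, and Eno1b overlaps G630055G22Rik. Fam177a overlaps Gm2436, Prmt2 overlaps Mir678 and B3glct overlaps Gm36141. Prmt2, B3glct and Smim6 kept the call in 1 of the 12 fits each (adjusted p up to 0.158, 0.0974 and 0.137), Sap30 and St8sia6 in 5, Evi2a in 8, Eno1b in 9 and Fam177a in 10.

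Ifi208 (Entrez 100033459), of the interferon-inducible PYHIN family of nucleic acid sensors, showed the deepest fall outside microRNA genes. It had 4.08, 4.14 and 5.49 in TrB_WT and 1.32, 1.15 and 0.858 in TrB_KO, each knockout library far below each wild type (ratio 0.243, log2 change -1.40, SE 0.14, limma adjusted p = 3.6e-04). Copies in the family may share reads. The rest of the interferon list did not go with it. Of 39 listed interferon response genes none rose, Ifi208 alone fell, 30 had a log2 change above 0 (51.5% over all genes) and the median was 0.18. Mx2, an antiviral GTPase, had 2.38 ± 0.458 and 3.52 ± 0.441 (limma adjusted p = 0.299), without overlap.

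The microRNA genes among the calls rest on very few reads. Mir1949 had 1, 1 and 1 reads in TrB_WT and 3, 5 and 11 in TrB_KO. Mir7051, Mir185, Mir302c, Mir7228 and Mir7211 had 1 to 4 reads in each TrB_WT library and 0 in every TrB_KO library. Each overlaps a host gene, and such numbers do not allow a fold. With voom on recovered reads none of these 6 was called.

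**Figure D2:**
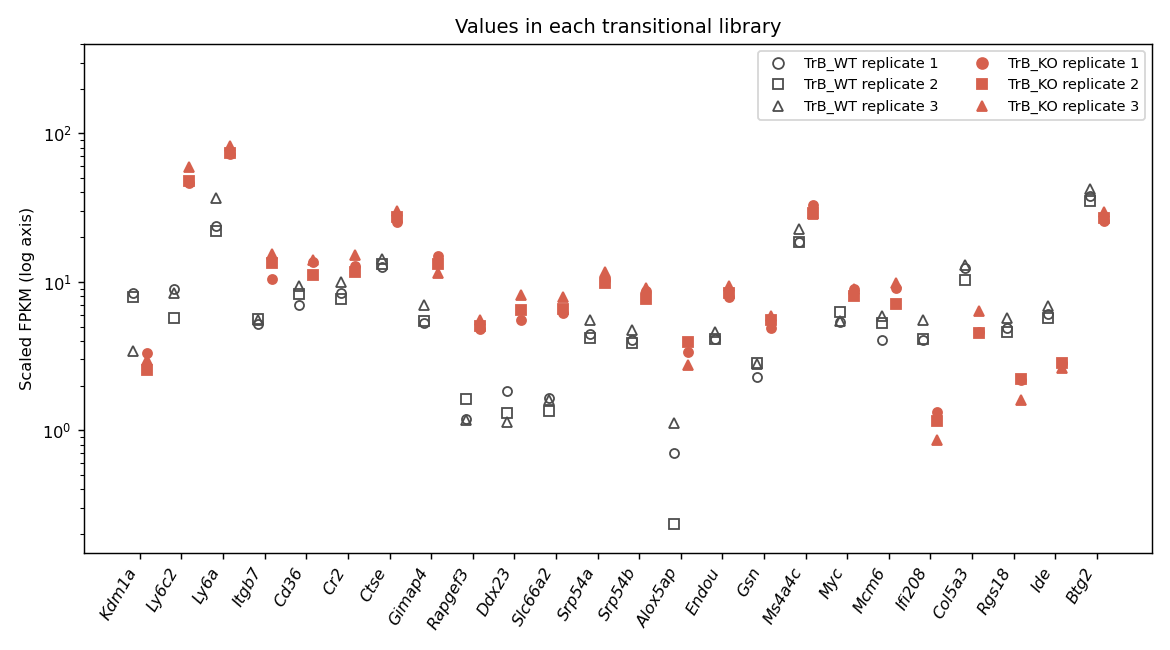
Scaled FPKM on a log axis in each of the 6 transitional libraries for Kdm1a and 23 called genes, open grey symbols for TrB_WT and filled red symbols for TrB_KO, with the symbol shape giving the replicate. In the called genes no red symbol overlaps the grey ones, whereas for Kdm1a the TrB_WT triangle (3.44) sits beside the TrB_KO values.

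The enzyme's partners and the regulators of B cell identity gave no call. In the LSD1 complex list limma and voom called 0 of 15, with 3 under an unadjusted p of 0.05, Kdm1a among them. Rcor1 (CoREST1) had 5.46 ± 2.57 and 3.81 ± 1.14, Hdac1 25.8 ± 3.98 and 30.1 ± 2.0, and Gfi1, a repressor that recruits LSD1, 1.40 ± 0.518 and 2.12 ± 0.533, all with overlapping libraries. Over the whole list TrB_KO lay wholly below TrB_WT in 1 gene, Kdm1a, and wholly above in 1 gene. Over all genes these shares were 4.37% and 6.14%. Other histone demethylases had 0 of 18 called by either tool (0 under an unadjusted p of 0.05, median 0.07), and methyltransferases of lysines 4 and 9 had 0 of 18 (1 under, median -0.01). Of 30 B cell transcription factors neither tool called any, with 4 under an unadjusted p of 0.05 and a median of -0.05. Among them Bcl6, the germinal centre repressor, had 7.17 ± 0.819 and 5.51 ± 1.02 (limma adjusted p = 0.371), Ebf1 18.6 ± 0.520 and 15.9 ± 2.11 (adjusted p = 0.475 in limma), and Bach2 13.5 ± 3.36 and 9.64 ± 1.55. The knockout values of Bcl6 and Ebf1 lay wholly below wild type, while those of Bach2 overlapped.

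Genes of the plasma cell list had 0 of 13 called in limma and in voom and 4 under an unadjusted p of 0.05, with 11 above 0 and a median of 0.20. Mzb1, a chaperone of antibody assembly, had 63.9, 58.5 and 69.0 in TrB_WT and 73.4, 84.3 and 69.2 in TrB_KO (limma adjusted p = 0.374), and Prdm1 (Blimp-1) 0.621 ± 0.0883 and 0.730 ± 0.116. Jchain ran from 0.401 to 24.0 in TrB_WT and from 17.7 to 58.6 in TrB_KO, so its libraries overlapped. MHC class II genes had 0 of 11 called by either tool and 0 under an unadjusted p of 0.05, with a median of 0.02. For Toll-like receptor genes it was 0 of 19 and 3 under, and Irak3, a brake on these receptors, had 3.68 ± 0.340 and 5.97 ± 1.09 (limma adjusted p = 0.0566). Glycolysis had 0 of 16 and oxidative phosphorylation 0 of 24 called by both tools, with 0 and 2 under an unadjusted p of 0.05. In all, 19 of 611 listed genes in the lists were called, against 49 of 9842 (0.498%) over all genes. The lists were chosen with earlier results of these data known, so nothing is read from that comparison.

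**Figure D3:**
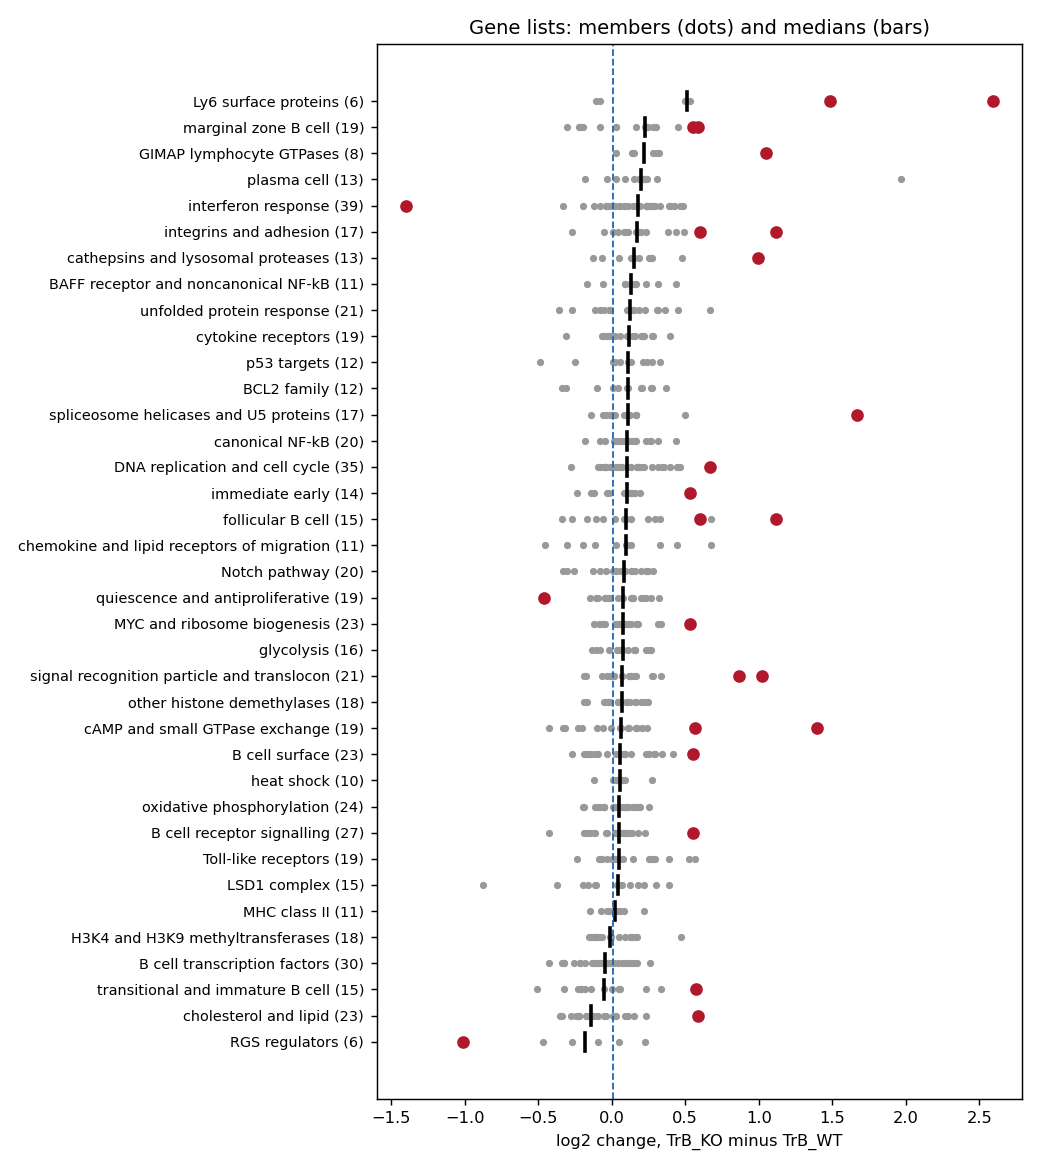
Log2 changes, TrB_KO minus TrB_WT, of the listed members (dots, called ones larger and red) of each gene list with at least 5 listed members, with the list median as a bar and the median of all genes (0.01) as a dashed line. Medians run from -0.18 (RGS regulators) to 0.51 (Ly6 surface proteins), and most lists hold at most 1 called gene.

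The share of listed genes that was called differed between chromosomes (GRCm38), a difference that was not tested. Chromosome 15 held 8 of them among 378 listed genes (2.12%, against 0.498% over all genes), all higher: Myc, Ly6a, Ly6c2, Endou, Rapgef3, Ddx23, Fmnl3 and Itgb7. Chromosome 1 followed with 9 of 568 (1.58%), 6 higher and 3 lower, then chromosome 18 with 3 of 236 (1.27%) and chromosome 12 with 4 of 347 (1.15%), all higher. In all, 13 called genes had another within 1 Mb. No share for other genes was worked out, so the count of 13 is a description and shows no clustering. The closest were Srp54a, Fam177a and Srp54b on chromosome 12, where the gaps were 9.07 and 13.0 kb and all 3 listed genes of the stretch rose. Srp54a and Srp54b may share reads, so they are not independent neighbours. Endou (chr15:97711015-97731405) and Rapgef3 (chr15:97744770-97768419) lay 13.4 kb apart, and Ly6a (chr15:74994877-74998031) and Ly6c2 (chr15:75108161-75112066) 110 kb apart. From Endou to Itgb7, 4.52 Mb with 49 listed genes, 5 rose, none fell, and the median of the genes not called was 0.07. The ends of each stretch were set at called genes, so the counts of calls within stretches are descriptions and no test. Arf3, near Ddx23 (chr15:98645379-98662928), had a log2 change of -0.43 (SE 0.14, limma adjusted p = 0.279). Between Ctse (chr1:131638314-131675507) and Csrp1, 32 listed genes held 3 rises and 1 fall, and the median of the others was 0.05.

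**Figure D4:**
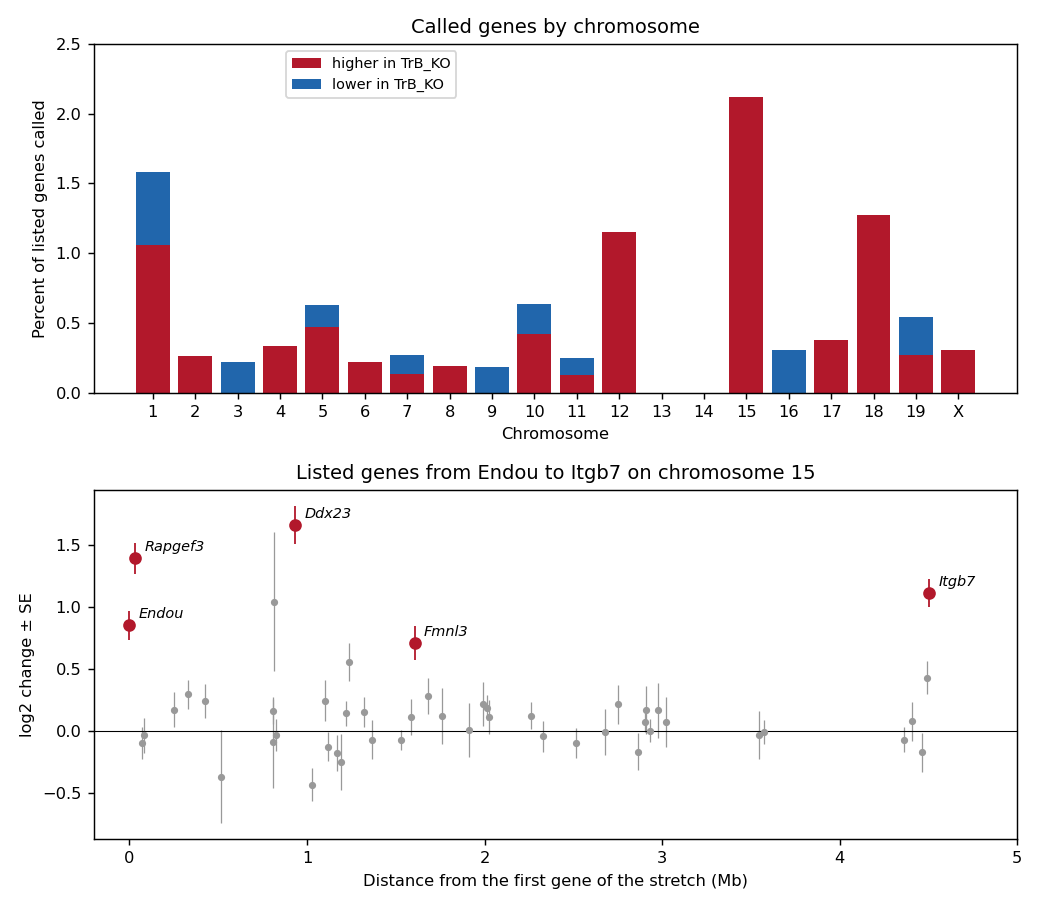
The upper bars give the percent of listed genes on each chromosome that were called in the transitional comparison, higher in red and lower in blue, and the lower panel the log2 change with its SE of each listed gene by distance from Endou on chromosome 15. Chromosome 15 has the tallest bar (2.12%), and in the stretch the genes that were not called have a median of 0.07, although Snora2b (1.05, SE 0.56) lies above the called Endou and Fmnl3.

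The cultured cells give a reading of the same genes in libraries that the choice of calls did not rest on as a contrast, although all 12 libraries shared the estimate of spread. Of the 43 called genes other than microRNA genes, 36 had the same sign in eMZB, 31 of 37 rises and 5 of 6 falls, where 48.8% of all genes were above 0 in eMZB. Among the 49, 17 were also called there, 14 higher and 3 lower and all with the same sign, against 40 of all 9842 genes (0.406%). Ctse had 8.24, 7.55 and 7.59 in eMZB_WT and 17.5, 17.8 and 16.5 in eMZB_KO, and its log2 change of 1.06 (SE 0.09) stood beside 0.997 in transitional cells. Rapgef3 had 0.645 ± 0.160 and 1.87 ± 0.109 (SD, n = 3), a log2 change of 0.81 beside 1.40. Ide had 14.7 ± 0.364 and 8.73 ± 0.102, at -0.69 beside -0.94. In these 3 genes the eMZB libraries of both genotypes did not overlap.

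Other genes called in transitional cells were not called after culture. Ly6a had 274, 330 and 239 in eMZB_WT and 323, 365 and 308 in eMZB_KO, so the groups overlapped (log2 change 0.25, limma adjusted p = 1.0). Col5a3 was near 0 in both groups, 0.117 ± 0.0818 and 0.140 ± 0.118. Icosl had 17.8, 19.5 and 21.6 in eMZB_WT and 15.8, 14.8 and 15.9 in eMZB_KO, the opposite order to transitional cells. The difference between the responses was tested as an interaction, on genes picked for their transitional response. Limma called 0 of the 49, voom 0, and 30 were under an unadjusted p of 0.05, with 1 call among all genes (0.0102%) and 6.86% of all genes under that p. Since the interaction contains the transitional response that chose them, nothing is read from the 30. The smallest adjusted p among the 49 was 0.0802 in limma, shared by Slc66a2 (log2 -0.998, SE 0.17) and Icosl (-0.78, SE 0.12). Without the library labelled TrB_WT replicate 3 the interaction called 2 of the 49, and with array weights 10.

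**Figure D5:**
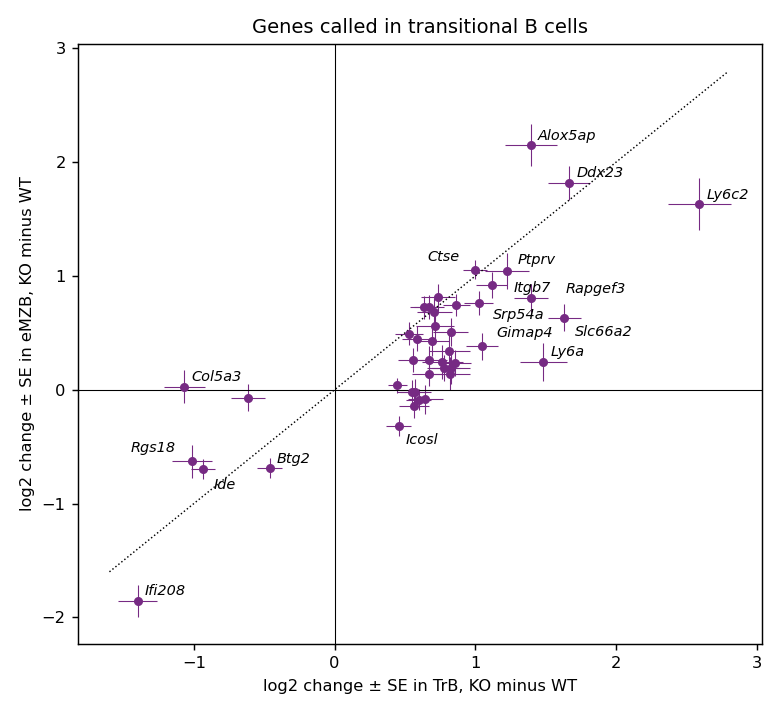
The 43 called genes other than microRNA genes, with the log2 change in transitional cells on the x axis and in cultured marginal zone B cells on the y axis, each with its SE, and a dotted line of equal change. Most points lie on the same side of 0 on both axes (36 of 43), while Ly6a (1.48 and 0.25) and Col5a3 (-1.07 and 0.03) lie close to the horizontal line.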

How the data were processed

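Per the labels' protocols, SMART-Seq v4 cDNA from the RNA of 2000 cells was made into Nextera XT libraries, a kit that does not mark strand. STAR and the mm10 build are named in the submitters' processing notes; annotation and counting program were not given in the sources used here. Deposited by the authors were FPKM per gene, with Entrez IDs, for 9842 genes that each reach 1 FPKM in at least 3 libraries. Of the IDs, 9833 matched a RefSeq symbol (GRCm38.p6) and 9 did not.

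Each library was divided by its median-of-ratios factor, over 9446 genes above 0 in all 12 libraries. Limma 3.58.1 (R 4.3.3; lmFit, eBayes with trend) was fitted to log2(scaled FPKM + 1) in 4 group means, with 8 residual degrees of freedom and Benjamini-Hochberg adjustment over all genes; fold changes on this scale understate changes of low genes. Calls had an adjusted p under 0.05. The script was tested on simulated data. Whole reads were recovered within 0.02 reads for all 9842 genes, from the FPKM steps and 1 total per library, for depth and for voom. The shortest gene length that gave whole reads was taken. It equalled the annotated length in 177 of 197 microRNA and snoRNA genes. Where it is too short, reads are counted too low. PCR reads without molecular identifiers bound counting error only. Replicate pairs differed by 2.95 to 18.6 times the counting noise, so no pair was 1 library read again. Separate preparations of the same RNA would also differ, so this cannot show that replicates came from separate animals.

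Values per library are given for Kdm1a, for the called genes averaging 5 FPKM or more in either group that rose (15) or fell (10, of which 4 were found) the most, and for called members of 45 gene lists; other called genes are named with their change, and some list members are not reported here. Cxcr4, Mzb1 and eMZB values were added for list members or called genes. Members and lists were chosen with earlier results of these data known. Alternatives were other scalings, pseudocounts, filters, fits and left-out libraries. Python 3.11.15, numpy 2.4.6, pandas 2.3.3 and matplotlib 3.10.9 were used.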

Additional observations from a re-analysis of the deposited data

How the results depend on the processing

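The count of 49 called genes (38 higher, 11 lower, 43 without microRNA genes, 19 in lists) was the most sensitive to scaling, to the estimate of spread and to single libraries. As deposited it was 19, with 11 higher, 9 outside microRNA genes and 4 in lists; 3 of the called genes were also called in eMZB and 5 in the interaction, Btg2 turned from -0.46 to 0.16 (0.157), and Kdm1a shrank from -0.87 to -0.32. The transitional libraries alone gave 9, with 7 higher, 2 lower, 7 outside microRNA genes and 6 in lists. Voom on recovered reads gave 21, with 17 higher, 4 lower, 21 outside microRNA genes and 12 in lists. A mean of at least 5 FPKM left fewer genes to test and gave 30, with 3 lower and 8 also called in eMZB. A pseudocount of 0.1 gave 4 lower, and eBayes without trend 12 in lists. Array weights gave 10 interaction calls and -1.16 (-1.163) for Kdm1a. Without both replicates 3 the count was 80, with 55 higher, 25 lower, 74 outside microRNA genes, 23 in lists and 6 in the interaction, and Kdm1a stood at -1.23 (-1.228). The causes were not tested.

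Over the 12 fits that left out 1 library the called genes ran from 26 to 54, higher from 19 to 39, lower from 7 to 16, outside microRNA genes from 22 to 49, in lists from 12 to 19, called in eMZB from 11 to 17, interaction from 0 to 2 and Kdm1a from -1.22 to -0.68. In all 12 of them 24 genes kept their call (17 higher, 7 lower), and 15 kept it in at most 2. Ly6c2, Ly6a, Ddx23, Rapgef3 and Slc66a2 were called in each of the 25 alternative fits that tested them. Counts with other settings were 37 (upper-quartile factors), 46 (factors from transitional libraries alone), 48 (pseudocount 0.5), 50 (robust eBayes) and 52 (array weights).

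Same-numbered libraries of both groups shared only a number (correlations of deviations 0.05, -0.07 and -0.06). With the replicate number as a block 39 genes were called, 30 higher and 9 lower, 38 of them among the 49; no TrB_KO library correlated best with the TrB_WT library of its own number. Depth limits the low genes: the called microRNA genes rest on 1 to 11 reads where detected.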
